A study of Mus musculus with 4 samples.

Results

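Cell-cell junction genes of the epidermis were examined in mouse skin treated with a compound labelled NEDD8i. The 29 genes were taken by symbol from a list of desmosomal, adherens, tight and gap junction genes, and all 29 were present among the 56953 genes of the count table. The samples were dorsal skin of wild type C57BL/6J mice. One group received topical NEDD8i at 10 µM for 3 days, and the control group received topical DMSO for the same time. Each group had 2 libraries, read as 3′ tags, so that the reads of a gene do not grow with its transcript's length. No molecular identifiers are named, so copies of the same molecule may be counted more than once. The age of the mice, the number of animals behind each library and the identity of the compound are not given in the sources used here, so p-values measure only the spread between these libraries, which may be technical.

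Desmosomes tie the keratin filaments of neighbouring cells together. Their transmembrane cadherins are the desmogleins (Dsg) and desmocollins (Dsc), and their cytoplasmic plaque is built of desmoplakin, plakoglobin, plakophilins and the envelope plakins. In stratified epidermis Dsg3 and Dsc3 are known mainly from the lower layers and Dsg1 and Dsc1 mainly from the upper ones, whereas Dsg2 and Dsc2 are better known from simple epithelia and hair follicles. Adherens junctions couple E-cadherin to actin through catenins, tight junctions of claudins, occludin and their scaffolds seal the granular layer, and gap junctions of connexins let small molecules pass between cells.

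Library totals ran from 5639791 to 8856572 counts, of which 52.6% to 61.7% fell on 3 ribosomal RNA genes. Of the remaining reads the junction genes took 1.266% and 1.468% in the DMSO pair (replicate 1, then 2, here and below), and 1.347% and 1.613% in the NEDD8i pair. The exact 95% binomial intervals were 1.253% to 1.279%, 1.453% to 1.484%, 1.336% to 1.359% and 1.6% to 1.626%. The 2 groups' ranges overlapped, so the summed share did not separate them. The libraries did not resemble one another closely. Across all tested genes the log2 scaled counts of the DMSO pair had a Pearson correlation of 0.87, and those of the NEDD8i pair 0.943. DMSO replicate 2 correlated at 0.886 and 0.887 with the NEDD8i libraries, and DMSO replicate 1 at 0.843 and 0.866. By this measure DMSO replicate 2 was no closer to the other control than to treated skin, which limits every comparison of groups below. Keratinocyte markers were abundant, while 5 endothelial markers summed to 2 to 21 reads, with Cdh5 at 0 in all 4 libraries. The 6 fibroblast markers summed to 383 and 36 reads in DMSO and 238 and 534 in treated skin. The labels nonetheless name full-thickness skin (their extraction text speaks of cells), and which skin layers the libraries hold was not tested. Markers of the hair shaft and inner root sheath (14 of 15 listed were in the table) summed to 7567 and 771.4 CPM in DMSO and to 456.3 and 840.7 CPM in treated skin. CPM here is the count scaled to the size of its library, corrected with TMM factors. Of these sums 1 listed gene, Gata3, gave 599.8 and 750.6 CPM in DMSO and 440.5 and 409 CPM in treated skin. Gata3 was thus most of the sum in DMSO replicate 2 and NEDD8i replicate 1, and the sums understate how far the other listed genes differed between libraries. Trichohyalin (Tchh), a defining inner root sheath gene, had 25617 counts in DMSO replicate 1 against 83, 115 and 2158 in DMSO replicate 2, NEDD8i replicate 1 and NEDD8i replicate 2, and each junction gene that differed between the DMSO libraries is given below with both values.

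Treated and control skin were compared to ask which junction transcripts differ between them. None of the 27 junction genes with enough reads for the test passed the threshold in edgeR's quasi-likelihood test (adjusted p 0.109 to 0.991 with Benjamini-Hochberg adjustment over 11388 genes), against 0.782% of all tested genes. At an unadjusted p under 0.05 there were 6, 4 higher (Dsg3, Dsc2, Cldn1 and F11r, against 8.62% of all tested genes) and 2 lower (Dsc1 and Gja1, against 7.87%), or 22.2% of the tested members against 16.5% of all tested genes. DESeq2 called 1 of 26 members, Dsg3, where it called 3.58% of all genes it tested, and limma-voom called 0 of 27 (0.237% of all genes). A missed threshold does not show that a gene was unchanged, since the 95% interval of the log2 fold change lay within -1 to 1 for only Dsp, Evpl and Ctnnd1, or 3 members (17.1% of all tested genes).

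The mean level after NEDD8i was above that in DMSO for 19 of the 27 tested genes (49.9% of all tested genes) and below it for 8, with a median log2 fold change of 0.37 against -0.0032 over all tested genes. In 15 of the 27 both NEDD8i libraries lay above both DMSO libraries (25% of all tested genes), and in 2 both lay below (22.9%). These counts depend on the scaling. By the mean of log2 CPM, 19 genes were higher and 8 lower with TMM factors, and 15 higher and 12 lower with library sizes alone. With library sizes alone 8 genes lay wholly above and 5 wholly below, against 15.9% and 32.1% of all genes. With RLE factors 13 genes lay wholly above and 2 wholly below (23.9% of all genes each), and with upper-quartile factors 11 above and 3 below (22% and 25.7%). The genes under the filter on low counts were Dsg1c, with 4 and 1 counts in control and 5 and 4 in treated skin, and the claudin gene Cldn7, with 2 and 0 counts in control and 10 and 4 in treated skin.

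**Figure D1:**
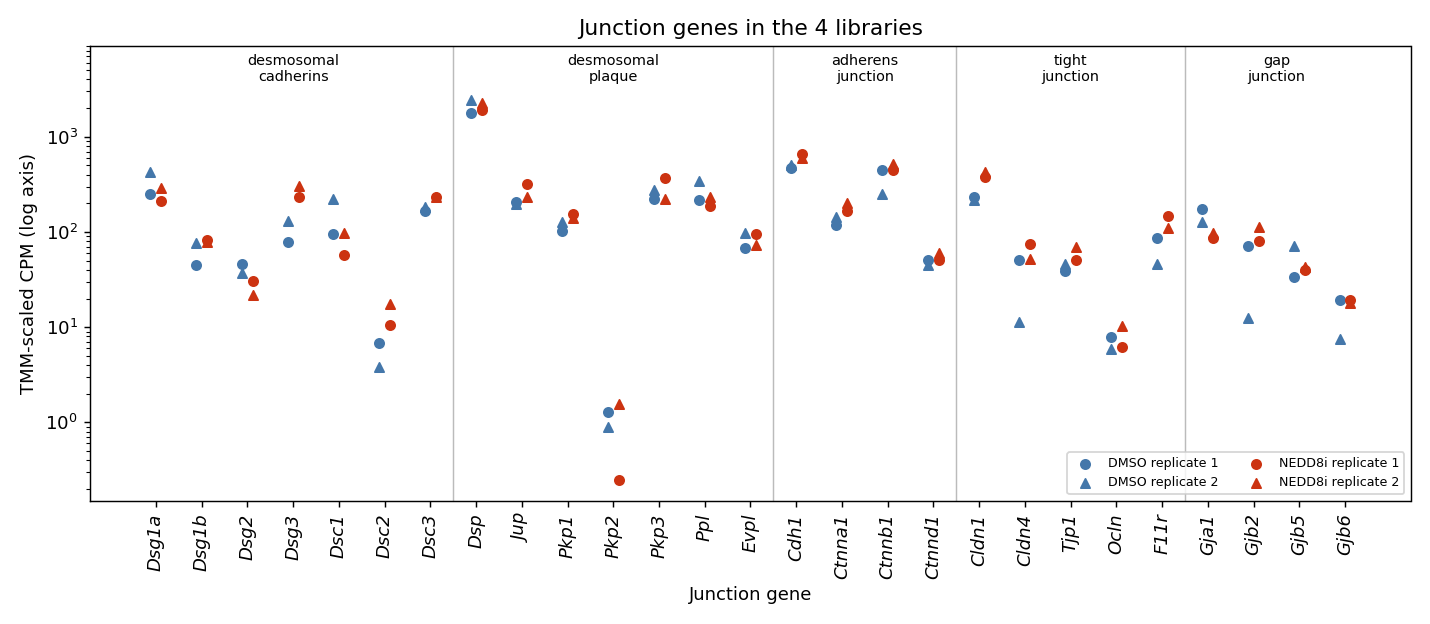
TMM-scaled CPM (log axis) of the 27 tested junction genes, 1 point per library, with DMSO in blue and NEDD8i in red, circles for replicate 1 and triangles for replicate 2. Dsg3 and Cldn1 show both red points above both blue ones, whereas Cldn4 and Gjb2 have 1 low point, DMSO replicate 2.

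Among the desmosomal cadherins, Dsg3 showed the smallest p-value of the junction genes. Dsg3 (ENSMUSG00000056632.9, chromosome 18, 20643331 to 20680516, plus strand, coordinates of the deposited table, taken to be GRCm39) stood at 77.6 and 129 CPM in DMSO and at 234.8 and 302.9 CPM in treated skin. The groups did not overlap, and the lowest NEDD8i library was above the highest DMSO library. The mean was 2.60-fold higher after NEDD8i (103.3 ± 36.3 against 268.9 ± 48.2 CPM, SD, n = 2 each), and the log2 fold change was 1.38 (standard error 0.35, 95% interval 0.58 to 2.18, adjusted p = 0.109 in edgeR). DESeq2 called Dsg3 (adjusted p = 0.00502), as did edgeR with the replicate number as a block (adjusted p = 0.0301), without a filter (adjusted p = 0.00273), without DMSO replicate 1 (adjusted p = 0.0202) and without DMSO replicate 2 (adjusted p = 0.000154). It did not pass with the pairing of replicate numbers crossed (adjusted p = 0.0619) or with limma-voom (adjusted p = 0.129). In edgeR Dsg3 also missed the threshold with RLE, upper-quartile or no scaling factors and with a fixed filter (adjusted p 0.117 to 0.126). The same held without the robust option (adjusted p = 0.144) and without the ribosomal RNA genes (adjusted p = 0.119). Without NEDD8i replicate 1 the adjusted p was 0.453 and without NEDD8i replicate 2 it was 0.636, and over all 15 alternatives its log2 fold change ran from 1.05 to 1.81.

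The companion of Dsg3 in the lower layers, Dsc3, was at 165.6 and 183.7 CPM in DMSO and 235.7 and 234.4 CPM in treated skin, again without overlap. Its mean was 1.35-fold higher (log2 fold change 0.43, 95% interval -0.23 to 1.08). Dsc2, of which few reads were found, was at 6.84 and 3.79 CPM in DMSO and 10.6 and 17.6 CPM in treated skin. These values come from 48, 21, 86 and 147 reads in that order. Its log2 fold change was 1.40 (SE 0.45, 95% interval 0.37 to 2.42, adjusted p = 0.177 in edgeR), and it passed without DMSO replicate 1 (1.88, adjusted p = 0.00334) and without a filter (adjusted p = 0.0488). Dsg2 stood on the other side, at 46.6 and 37.2 CPM in DMSO and 30.3 and 21.8 CPM in treated skin. The Dsg2 groups did not overlap, with a mean 1.61-fold lower and a log2 fold change of -0.69 (standard error 0.31, 95% interval -1.38 to 0.01, adjusted p = 0.312 in edgeR).

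Dsc1, the desmocollin of the upper layers, was at 94.6 and 222.1 CPM in DMSO and 57.0 and 96.7 CPM in treated skin. The groups overlapped, because NEDD8i replicate 2 lay just above DMSO replicate 1. The mean was 2.06-fold lower (log2 fold change -1.04 with SE 0.44, 95% interval -2.05 to -0.03, adjusted p = 0.29 in edgeR), and the value moved with the control kept, from -1.54 without DMSO replicate 1, where it passed (adjusted p = 2.43e-05), to -0.28 without DMSO replicate 2. Dsg1a was at 249.8 and 426 CPM in DMSO and 213.4 and 289.2 CPM in treated skin, which overlapped, and its log2 fold change was -0.43 (95% interval -1.24 to 0.39). The log2 fold change of Dsg1a was 0.03 without DMSO replicate 2. Dsg1b was at 45.1 and 76.9 CPM in DMSO and 82.3 and 79.4 CPM in treated skin, without overlap, a log2 fold change of 0.41 (95% interval -0.33 to 1.14).

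Mouse Dsg1 exists in 3 close copies, whose reads may be split or lost in counting. Of the 50-base words in the last 500 bases of the longest annotated Dsg1b transcript 6.43% also occurred in Dsg1a, and 0% of those of Dsg1a occurred in Dsg1b, whereas over the whole transcripts 45.5% and 31.6% were shared. The 2 genes differ more at the end that the tags read than elsewhere. None of the 50-base words of Dsg3 occurred in a Dsg1 copy.

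Ratios of reads between cadherins of one library do not depend on how libraries are scaled, and the following pairs were chosen after their values were seen, from the layers in which they are known. For 1 read of Dsg1a and Dsg1b together there were 0.263 and 0.257 reads of Dsg3 in DMSO, and 0.794 and 0.822 reads in treated skin. Exact 95% counting intervals were 0.239 to 0.289, 0.236 to 0.279, 0.747 to 0.844 and 0.780 to 0.867. The ratio was thus nearly the same within each group and 3.11-fold higher after NEDD8i. The Dsc3 to Dsc1 ratio was 1.75 and 0.827 in DMSO and 4.13 and 2.42 after NEDD8i, a 2.63-fold difference of geometric means. The Dsc2 to Dsc1 ratio was 0.0723 and 0.0171 in DMSO and 0.187 and 0.182 after NEDD8i. None of these ratios overlapped between groups, but the Dsc3 to Dsc1 ratio differed by 1.38-fold only between its nearest libraries. With 2 libraries against 2 an exact two-sided permutation test cannot reach 0.05, so the ratios carry no p-value.

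**Figure D2:**
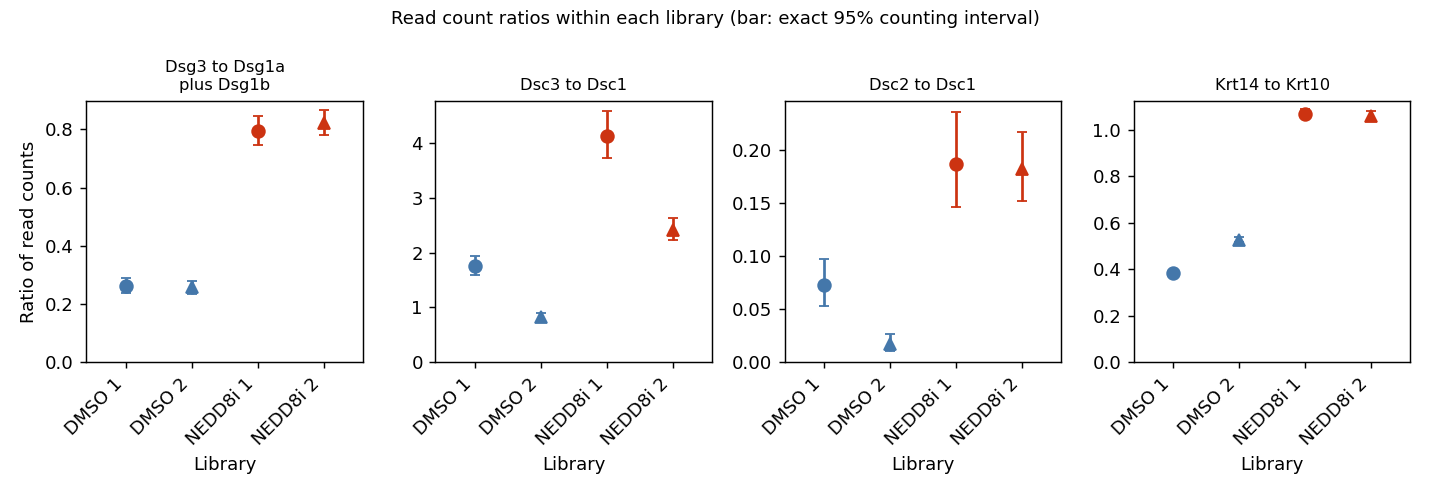
Ratio of read counts in each of the 4 libraries for Dsg3 to Dsg1a plus Dsg1b, Dsc3 to Dsc1, Dsc2 to Dsc1 and the keratins Krt14 to Krt10, with exact 95% counting intervals as bars and all axes starting at 0. The Dsg3 ratio sits at 0.263 and 0.257 in DMSO and at 0.794 and 0.822 after NEDD8i, and the NEDD8i libraries are above the DMSO libraries in every panel. The cadherin pairs were chosen after their values were seen, so their separation is no test. The keratin pair Krt5 to Krt1, which overlapped between groups, is not drawn.

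Layer keratins were compared in the same way. The ratio of Krt14, a basal keratin, to Krt10, a suprabasal keratin, was 0.385 and 0.527 in DMSO and 1.07 and 1.06 after NEDD8i, without overlap. The ratio of Krt5 to Krt1, another basal and suprabasal pair, was 1.83 and 0.904 in DMSO and 1.04 and 1.79 after NEDD8i, with overlap. The 4 keratins of wounded epidermis (Krt6a, Krt6b, Krt16 and Krt17) summed to 366.4 and 392.5 CPM in DMSO and 3323 and 3333 CPM in treated skin. Only 1 of the 4, Krt6a, passed as higher. The close sums hide differences within DMSO, where Krt16 was at 13.8 and 114.2 CPM and Krt6b at 0.997 and 27.3 CPM. Krt17 did not follow the others, at 262.9 and 79.2 CPM in DMSO and 221.8 and 182.4 CPM in treated skin, with overlap. Suprabasal markers (5 of 5 in the table) summed to 4108 and 7076 CPM in DMSO and 4225 and 3389 CPM in treated skin, with loricrin (Lor) the 1 that passed, as lower. Basal markers (5 of 5) summed to 2931 and 5557 CPM in DMSO and 4940 and 4240 CPM in treated skin, with 0 passing. The part of these markers in the cadherin values was not tested, and in RNA of mixed cells fewer cells of a type and less RNA per cell cannot be told apart.

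The desmosomal cadherin genes form 1 cluster on chromosome 18, from 20093987 to 20737578 in the deposited table, and some neighbours in it had changes of opposite sign. The order along the chromosome was Dsc3, Dsc2, Dsc1, Dsg1c, Dsg1a, Dsg1b, Dsg4, Dsg3 and Dsg2, with the Dsc genes on the minus strand and the Dsg genes on the plus strand. Dsc2 at 1.40 lay beside Dsc1 at -1.04, and Dsg3 at 1.38 beside Dsg2 at -0.69, all log2 fold changes. Other neighbours had the same sign, with Dsc3 at 0.43 beside Dsc2, and Dsg1b at 0.41 next to Dsg3 but for Dsg4. The adjacent desmoglein Dsg4, known from the hair shaft, is no member and had 5 counts in DMSO replicate 1 and 0 in the other 3 libraries. None of these single differences passed the threshold, and the differences between neighbours were not tested.

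**Figure D3:**
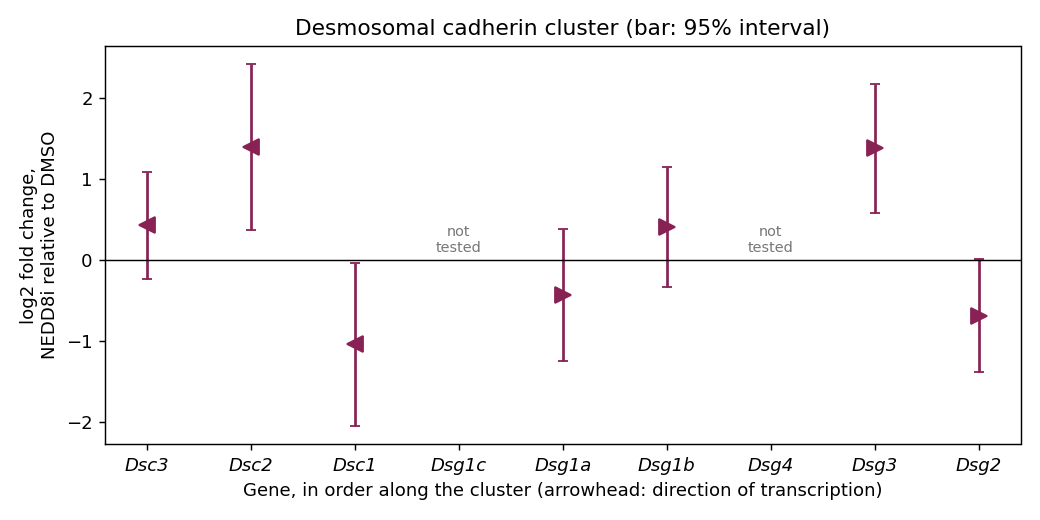
log2 fold change (NEDD8i relative to DMSO, edgeR, bars for 95% intervals) of the desmosomal cadherin genes in their order along the cluster, with arrowheads for the direction of transcription. Dsc2 and Dsg3 stand at 1.40 and 1.38 while their neighbours Dsc1 and Dsg2 stand at -1.04 and -0.69, and Dsg1c and Dsg4 had too few reads for a test.

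None of the desmosomal plaque genes passed, and their values lay on either side of the control. Desmoplakin (Dsp, ENSMUSG00000054889.11, chromosome 13, 38335270 to 38382553), which links the plaque to keratin, was at 1778 and 2451 CPM in DMSO and 1905 and 2268 CPM in treated skin. The NEDD8i libraries lay between the DMSO libraries, and the log2 fold change was -0.02 (SE 0.35, 95% interval -0.81 to 0.77, adjusted p = 0.986 in edgeR). Envoplakin (Evpl), a plakin of the cornified envelope, was at 68.2 and 97.6 CPM in DMSO and 94.4 and 72.7 CPM in treated skin, a log2 fold change of 0.01 (95% interval -0.69 to 0.72). Its partner periplakin (Ppl) was at 218.3 and 341.4 CPM in DMSO and 185.2 and 232.6 CPM in treated skin, which overlapped, with a log2 fold change of -0.42 (standard error 0.34, adjusted p = 0.596 in edgeR).

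Plakoglobin (Jup), the catenin family member that binds desmosomal cadherins, was at 208.3 and 196.3 CPM in DMSO and 317.1 and 233 CPM in treated skin, without overlap. Its log2 fold change was 0.44 (SE 0.31, 95% interval -0.26 to 1.14, adjusted p = 0.532 in edgeR). Plakophilin 1 (Pkp1), the main epidermal plakophilin, was at 103.1 and 126.1 CPM in DMSO and 155.8 and 139.6 CPM in treated skin, also without overlap, with a log2 fold change of 0.37 (standard error 0.29, adjusted p = 0.595 in edgeR). Pkp3 overlapped, at 223.3 and 277.3 CPM against 367.3 and 219.6 CPM, and its log2 fold change of 0.23 became -0.17 without NEDD8i replicate 1. Pkp2, known best from heart muscle, had 9 and 5 counts in control and 2 and 13 in treated skin, too few to show a difference at this depth (log2 fold change -0.28, 95% interval -2.52 to 1.97, adjusted p = 0.921 in edgeR). All 7 plaque genes were tested and 0 passed, 2 lay wholly above the control (25% of all tested genes) and 0 wholly below (22.9%), and the median log2 fold change was 0.01.

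The 4 adherens junction genes had higher means after NEDD8i, against 49.9% of all tested genes (Ctnnd1 not with library sizes alone), and none passed. E-cadherin (Cdh1, ENSMUSG00000000303.13, chromosome 8, 107329983 to 107396878) was at 473.1 and 510.8 CPM in DMSO and 655.3 and 600.4 CPM in treated skin. Its mean was 1.28-fold higher, a log2 fold change of 0.35 (95% interval -0.33 to 1.04). Alpha-catenin (Ctnna1), which binds actin, was at 118.9 and 142.4 CPM in DMSO and 165.7 and 203.1 CPM in treated skin (log2 fold change 0.50 with SE 0.30, 95% interval -0.18 to 1.17, adjusted p = 0.459 in edgeR). Neither gene overlapped between groups.

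Beta-catenin (Ctnnb1), which joins E-cadherin to alpha-catenin and also serves Wnt signalling, was at 443.2 and 247.9 CPM in DMSO and 451.5 and 512.1 CPM in treated skin. DMSO replicate 1 was thus close to the NEDD8i libraries and DMSO replicate 2 well below them (log2 fold change 0.48 with SE 0.36, adjusted p = 0.564 in edgeR). Without DMSO replicate 1 the value was 0.95 and passed (adjusted p = 0.0413), and without DMSO replicate 2 it was 0.14. p120-catenin (Ctnnd1), which holds cadherins at the membrane, was at 50.6 and 45.5 CPM in DMSO and 51.2 and 60.1 CPM in treated skin, a log2 fold change of 0.21 (95% interval -0.41 to 0.84). All 4 genes lay wholly above the control with TMM factors (25% of all tested genes). With RLE factors (23.9% of all genes), upper-quartile factors (22%), library sizes alone (15.9%) or the ribosomal RNA genes left out (24%) 2 of the 4 did, and the Ctnnd1 value was -0.01 with library sizes alone.

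**Figure D4:**
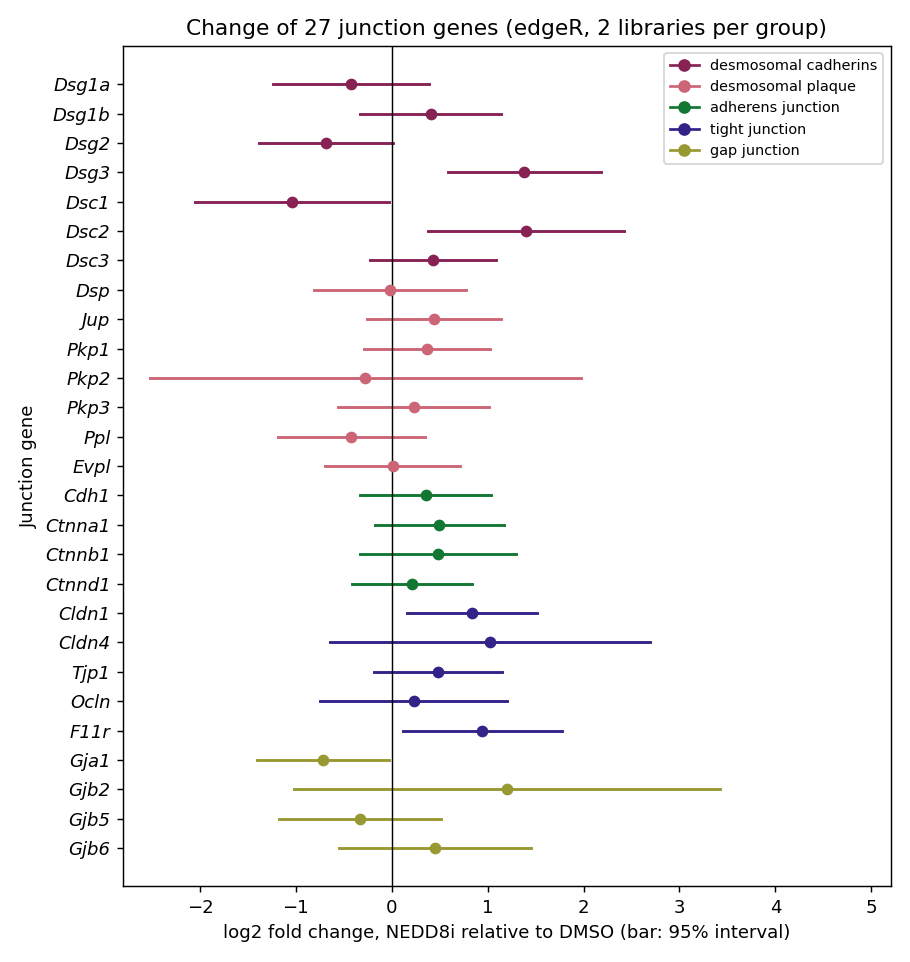
log2 fold change of each of the 27 tested junction genes, NEDD8i relative to DMSO, with 95% intervals from edgeR and 2 libraries per group, coloured by junction class. The intervals of Dsg3, Dsc2, Cldn1 and F11r lie above 0 and those of Dsc1 and Gja1 below it, and none of the 27 passed an adjusted p of 0.05.

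All 5 tested tight junction members had higher means after NEDD8i, against 49.9% of all tested genes (Ocln not with library sizes alone), and none passed. Tight junction genes outside the member list did not share this direction. Of the 19 tested there, 7 had higher and 12 lower means, with a median log2 fold change of -0.29. Among these 19, 3 lay wholly above and 6 wholly below the control (25% and 22.9% of all tested genes). Claudin 1 (Cldn1, ENSMUSG00000022512.4, chromosome 16, 26175392 to 26190591, minus strand), the claudin that the epidermal water barrier depends on, was at 232.4 and 215.6 CPM in DMSO and 374.4 and 426.1 CPM in treated skin. Its libraries were close within each group and did not overlap between groups. The mean was 1.79-fold higher (224 ± 11.9 against 400.3 ± 36.6 CPM, SD, n = 2 each), and the log2 fold change was 0.84 (standard error 0.30, 95% interval 0.16 to 1.51, adjusted p = 0.21 in edgeR). The log2 fold change of Cldn1 stayed between 0.62 and 0.94 under the 15 alternatives, with adjusted p-values of 0.0609 to 0.837.

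The junctional adhesion molecule JAM-A (F11r, ENSMUSG00000038235.5, chromosome 1, 171265103 to 171292171, plus strand) was at 87.3 and 45.7 CPM in DMSO and 145.4 and 111 CPM in treated skin, without overlap. Its mean was 1.93-fold higher (log2 fold change 0.95 with SE 0.37, 95% interval 0.11 to 1.78, adjusted p = 0.246 in edgeR), and it passed without DMSO replicate 1 (1.48, adjusted p = 0.000567). Claudin 4 (Cldn4, ENSMUSG00000047501.4, chromosome 5, 134973973 to 134975788, minus strand) was at 51 and 11.4 CPM in DMSO and 75.2 and 51.7 CPM in treated skin. DMSO replicate 1 was 4.49-fold above DMSO replicate 2 and nearly level with NEDD8i replicate 2. The log2 fold change of 1.02 (standard error 0.67, 95% interval -0.65 to 2.69, adjusted p = 0.529 in edgeR) was 2.47 without DMSO replicate 1, where it passed (adjusted p = 3.54e-08), and 0.34 without DMSO replicate 2. The scaffold ZO-1 (Tjp1) was at 39.0 and 46.2 CPM in DMSO and 50.2 and 68.8 CPM in treated skin, without overlap (log2 fold change 0.48, 95% interval -0.19 to 1.15). Occludin (Ocln) overlapped, at 7.98 and 5.96 CPM against 6.19 and 10.2 CPM, with a log2 fold change of 0.23, of -0.00018 with library sizes alone and of -0.19 without NEDD8i replicate 2.

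Gap junction genes differed from one another in direction. Connexin 43 (Gja1, ENSMUSG00000050953.11, chromosome 10, 56253426 to 56266511, plus strand), found in the lower and middle layers of epidermis, was at 175 and 127.9 CPM in DMSO and 86.9 and 97.8 CPM in treated skin. The groups did not overlap and the mean was 1.64-fold lower (log2 fold change -0.71 with SE 0.30, 95% interval -1.40 to -0.03, adjusted p = 0.287 in edgeR). Connexin 26 (Gjb2, ENSMUSG00000046352.8, chromosome 14, 57336057 to 57342159, minus strand), a connexin known to be raised in wounded and psoriatic epidermis, was at 70.9 and 12.6 CPM in DMSO and 80.1 and 112.5 CPM in treated skin. Both NEDD8i libraries lay above both DMSO libraries, but DMSO replicate 1 was 5.62-fold above DMSO replicate 2. The log2 fold change of 1.20 (standard error 0.84, 95% interval -1.02 to 3.42, adjusted p = 0.567 in edgeR) was 2.92 without DMSO replicate 1 (adjusted p = 1.5e-11) and 0.46 without DMSO replicate 2 (adjusted p = 0.499). It also passed with a block that pairs unlike replicate numbers (1.63, adjusted p = 0.0114).

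Connexin 30 (Gjb6), the neighbour of Gjb2 on chromosome 14, showed the same split in the control, at 19.4 and 7.58 CPM, and was at 19.3 and 17.8 CPM in treated skin. Its log2 fold change was 0.45 (SE 0.44, 95% interval -0.55 to 1.46, adjusted p = 0.671 in edgeR), 1.28 without DMSO replicate 1, where it passed (adjusted p = 0.0382), and -0.04 without DMSO replicate 2. Gjb5, another epidermal connexin, was at 33.8 and 71.5 CPM in DMSO and 40.1 and 43.3 CPM in treated skin, where the NEDD8i libraries lay between the DMSO libraries (log2 fold change -0.33 with SE 0.37, adjusted p = 0.719 in edgeR, and 0.32 without DMSO replicate 2). The number of reads of Gjb2 for 1 read of Gja1 was 0.405 and 0.0987 in DMSO and 0.922 and 1.15 after NEDD8i, a pair chosen after its values were seen. The lowest NEDD8i ratio was 2.27-fold above the highest DMSO ratio. In DMSO replicate 1, which held the highest sum of hair markers, Gjb2, Cldn4 and Gjb6 were all higher than in DMSO replicate 2. That was so for 13 of the 27 tested members, against 5667 of all 11388 tested genes, while others such as Gjb5, Dsc1 and Dsg1a were lower there. The part of follicle cells in these values was not tested.

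**Figure D5:**
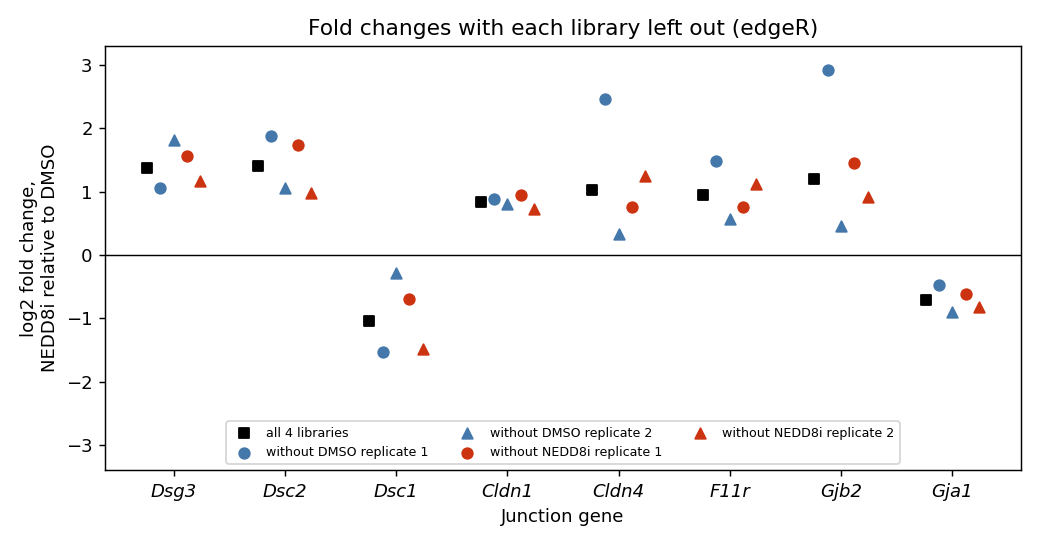
log2 fold change (NEDD8i relative to DMSO, edgeR) of 8 junction genes with all 4 libraries (black squares) and with each library left out (blue without a DMSO library, red without a NEDD8i library). The direction of these 8 genes did not change. With a DMSO library left out Gjb2 ran from 0.46 to 2.92 and Cldn4 from 0.34 to 2.47, and Cldn1 only from 0.80 to 0.88. Over all 4 exclusions Cldn1 ran from 0.73 to 0.94.

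With DMSO replicate 1 left out, 8 junction genes passed, namely Dsg3, Dsc2, Cldn4, F11r, Ctnnb1, Gjb2 and Gjb6 as higher and Dsc1 as lower, among 10.4% of all tested genes. Without DMSO replicate 2 only Dsg3 passed, among 10.7% of all tested genes, and without NEDD8i replicate 1 or NEDD8i replicate 2 none did, among 0.368% and 0.387%. In such a fit 1 group holds 1 library that is assumed to vary like the others, so these calls show how the count depends on a library. Of the 29 members only Dsg3 passed with each DMSO library left out in turn.

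Promoter sequence was available for 14 of the 29 members, in RefSeq windows on GRCm38.p6, and was searched for the AP-1 motif TGANTCA, which reads the same on both strands, in the 250 bases before each start. AP-1 is the Fos and Jun factor family, active in stressed keratinocytes. These genes have 18 windows, of which 3 held the motif, 1 each for Cldn4, F11r and Gja1, against 6.75% of all 32851 windows of this length. These 3 windows are shown because they stand before genes whose log2 fold changes differed in sign, with the motif in capitals. They lie at chr5:134946935-134947184 (minus strand), chr1:171437311-171437560 (plus strand) and chr10:56377050-56377299 (plus strand).
Cldn4: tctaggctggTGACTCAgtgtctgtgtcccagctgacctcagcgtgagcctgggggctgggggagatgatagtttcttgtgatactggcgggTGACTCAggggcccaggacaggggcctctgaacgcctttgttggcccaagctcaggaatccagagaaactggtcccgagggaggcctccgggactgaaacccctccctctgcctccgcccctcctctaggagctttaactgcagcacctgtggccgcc
F11r: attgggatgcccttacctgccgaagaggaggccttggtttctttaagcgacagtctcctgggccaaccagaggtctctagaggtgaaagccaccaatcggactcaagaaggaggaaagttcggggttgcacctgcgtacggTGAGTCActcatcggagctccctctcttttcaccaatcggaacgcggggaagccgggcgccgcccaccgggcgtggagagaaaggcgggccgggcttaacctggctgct
Gja1: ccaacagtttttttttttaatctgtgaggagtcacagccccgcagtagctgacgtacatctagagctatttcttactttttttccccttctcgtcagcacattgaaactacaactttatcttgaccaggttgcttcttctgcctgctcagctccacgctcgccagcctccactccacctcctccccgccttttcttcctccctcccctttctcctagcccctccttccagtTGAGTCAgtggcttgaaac
Cldn4 held the motif at 2 places, and F11r and Gja1 at 1 place each. The log2 fold changes beside them were 1.02, 0.95 and -0.71, so their signs differed, but none passed the threshold. No desmosomal cadherin gene, Dsg3 included, had a window to search. A match of letters is a description and not a binding site.

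The wider set of 64 other junction genes also gave no call. Of these, 37 were tested and 0 passed in edgeR (0 with limma-voom, 4 with DESeq2), 6 had an unadjusted p under 0.05, or 16.2% against 16.5% of all tested genes, and the median log2 fold change was -0.05. The other 27, among them 13 claudins, had too few reads for a test. The scaffold Tjp3 (ZO-3) and the polarity protein Crb3 were the tested genes with the largest changes of their list. Tjp3 had 64 and 69 counts in control and 5 and 20 in treated skin, a log2 fold change of -2.82 (standard error 0.61, 95% interval -4.20 to -1.43, adjusted p = 0.0732 in edgeR, and 0.00782 with DESeq2). Crb3, which marks the apical membrane, was at 6.98 and 21.8 CPM in DMSO and 39.0 and 50.4 CPM in treated skin (log2 fold change 1.64 with SE 0.49, 95% interval 0.54 to 2.74, adjusted p = 0.148 in edgeR, and 0.0377 with DESeq2). Neither gene overlapped between groups, and both passed with the replicate block (adjusted p = 0.0327 and 0.0486) and without either DMSO library, but not without either NEDD8i library.

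The polarity scaffold Pard3, named after its values were seen, was at 93.3 and 109.5 CPM in DMSO and 48.0 and 43.7 CPM in treated skin (log2 fold change -1.14, 95% interval -1.78 to -0.51, adjusted p = 0.101 in edgeR). Its groups did not overlap. DESeq2 called Pard3 (adjusted p = 0.0143), and it also passed in edgeR without a filter (adjusted p = 0.0418). It did not pass with limma-voom (adjusted p = 0.125), with the replicate block (adjusted p = 0.0551) or with that pairing crossed (adjusted p = 0.112). Nor did it pass in edgeR with the other scalings (adjusted p 0.0709 to 0.097). With each library left out in turn its log2 fold change ran from -1.27 to -1.01.

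In the other adherens junction genes, vinculin (Vcl), which strengthens the link to actin under tension, was at 10.8 and 16.2 CPM in DMSO and 30.6 and 26.6 CPM in treated skin (log2 fold change 1.08 with SE 0.33, adjusted p = 0.164 in edgeR). It passed without DMSO replicate 2 (adjusted p = 0.00568). The nectin gene Nectin3 had 192 counts in DMSO replicate 1 against 10, 15 and 23 in the other libraries, so its log2 fold change of -2.66 (adjusted p = 0.426 in edgeR) became 0.34 without that library, while it passed without DMSO replicate 2 (-3.54, adjusted p = 2.22e-14) and with unlike replicate numbers paired (-1.93, adjusted p = 0.0489). The p53 target Perp, a desmosomal membrane protein, was at 783.7 and 875.1 CPM in DMSO and 1095 and 950.7 CPM in treated skin (log2 fold change 0.30, adjusted p = 0.693 in edgeR). Corneodesmosin (Cdsn), the glue of cornified desmosomes, overlapped at 34.5 and 16.4 against 19.4 and 28.1 CPM (log2 fold change -0.10, adjusted p = 0.928 in edgeR). In the gap junction list, pannexin 1 (Panx1), a channel of a related family, was at 14.5 and 15.5 CPM in DMSO and 19.6 and 18.7 CPM in treated skin (log2 fold change 0.35, adjusted p = 0.642 in edgeR).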

How the data were processed

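The authors deposited raw read counts per gene from 4 QuantSeq 3′ libraries, in a featureCounts layout per the file headers. STAR, featureCounts, DESeq2, GRCm38 and GRCm39 are named in the submitters' processing notes, and strand and multi-mapping settings are not given in the sources used here. Columns were matched to samples by name, leaving 0 sample columns out. Counts were tested in R 4.3.3 with edgeR 4.0.16 (TMM, filterByExpr with minimum count 10 and minimum total 15, robust quasi-likelihood F test, Benjamini-Hochberg adjustment at 0.05), with group as the only term. Intervals of log2 fold changes used the test's standard error and degrees of freedom and are not adjusted for multiple tests. Counting intervals are exact (Clopper-Pearson) and cover counting error only, since no molecular identifiers are named. The floor of 3 counts lay between 0.359 and 0.541 CPM. Alternatives were DESeq2 1.42.0, limma-voom (limma 3.58.1), other scalings and filters, a fit without the robust option, a replicate block and each library left out. The fits were tested on simulated data. Every pair of libraries differed by more than counting error (chi-square over its degrees of freedom, 27.5 to 78.4). Every member was named, and of other junction genes the 2 largest changes per list where none passed; some results are not reported here. Members and lists were chosen with earlier results of these data known.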

Additional observations from a re-analysis of the deposited data

How the results depend on the processing

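Depth and 2 libraries per group limit what could be called: standard errors of log2 fold changes had a median of 0.42 over all tested genes and 0.35 over the junction genes. Of all tested genes 89 passed in edgeR, against 387 with DESeq2, 27 with limma-voom, 47 with library sizes without TMM, 703 without a filter and 48 without the robust option, and between 44 and 1358 with 1 library left out. The count of junction members that passed, 0 in the main analysis, was 1 with DESeq2, 2 without a filter and between 0 and 8 with 1 library left out, and that of other junction genes was 4, 5 and between 0 and 7. Library sizes without TMM shifted the median log2 fold change of all tested genes to -0.22 and that of the junction genes to 0.16. The junction median lay between 0.16 and 0.40 under all 15 alternatives, against 0.37 in the main analysis. The members' median log2 CPM in a library had a spread of 0.289 between replicates, which is not an error of the median log2 fold change. Of the 27 tested members 8 changed direction in at least 1 alternative. The other 19 kept it wherever they were tested, which was under all 15 alternatives for each of them but Pkp2, left out by the filter in 4. Evpl was -0.0078 with DESeq2, -0.017 with RLE factors, -0.19 with library sizes without TMM, -0.061 with upper-quartile factors, -0.00047 with the fixed filter (10 counts and a CPM above 1 in 2 libraries) and -0.015 without the 3 ribosomal RNA genes. With library sizes without TMM Ctnnd1 was -0.010 and Ocln -0.00018, and without a filter Dsp was 0.0099. With 1 library left out the log2 fold changes ran from -0.24 to 0.31 for Evpl, -0.24 to 0.25 for Dsp, -0.19 to 0.56 for Ocln, -0.17 to 0.54 for Pkp3, -0.79 to 0.32 for Gjb5, -0.042 to 1.28 for Gjb6, -0.77 to 0.028 for Dsg1a, -0.52 to 0.52 for Cdsn and -3.54 to 0.34 for Nectin3. The causes of these changes were not tested. The groups share replicate numbers, but no label says that a number marks a common animal or batch, and the deviations of equal numbers correlated at -0.13 across genes. With the replicate block 289 genes, 1 junction member (Dsg3) and 2 other junction genes passed. With the pairing crossed, an alternative chosen after seeing the data, 493 genes, 1 member (Gjb2, and not Dsg3) and 3 other junction genes passed.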
